A study of Mus musculus with 6 samples.

Results

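The mesenchymal glioma genes described here are Vim, Cd44, Tnc, Anxa1, Anxa2, S100a4, S100a6, S100a11, Lgals1 and Lgals3. They were chosen by name, as the rows of the deposited table with these symbols, and all 10 of 10 were found among the 16729 genes of the table. The libraries came from intracranial tumors of mG7080 cells, a murine glioblastoma (GBM) gliomasphere line derived from mice with p53 and Nf1 lesions. They were implanted intracranially in C57BL/6 mice that were either Esm1 WT or Esm1 KO, so the deletion was carried by the host and not by the tumor cells, and both groups received the same line. Esm1 encodes Endocan, a proteoglycan secreted by endothelial cells. There were 3 WT and 3 KO libraries, each of total RNA from tumor tissue, in which transcripts of tumor and host are mixed. In such bulk samples, fewer cells of a type and less RNA per cell cannot be told apart. The line is a single culture model, and the methods name female hosts, while the sex of the mG7080 cells is not given in the sources used here. Nothing in the labels states the time from injection to resection for each tumor.

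The mesenchymal state of GBM is a transcriptional program in which tumor cells express genes of the cytoskeleton, of cell adhesion and of the extracellular matrix. It is often set against the proneural state, which shares genes with oligodendrocyte precursors, and it is known for its association with microglia and macrophages, hypoxia and wound-like signaling through STAT3, C/EBPβ, NF-κB and AP-1. The 10 genes fall into groups by what their proteins do. Vimentin (Vim) is an intermediate filament, CD44 is a hyaluronan receptor on the cell surface, and tenascin-C (Tnc) is a matrix glycoprotein. Annexins (Anxa1, Anxa2) bind membrane phospholipids in the presence of calcium, S100 proteins (S100a4, S100a6, S100a11) are small calcium-binding proteins with EF-hand motifs, several of which dock onto annexins, and galectins (Lgals1, Lgals3) bind β-galactoside sugars. Microglia, macrophages, reactive astrocytes, vascular cells and fibroblasts also express many of these genes.

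Promoter sequence of RefSeq on GRCm38.p6 was matched by symbol for 9 of the 10 genes, with Lgals1 the exception. In the 250 bases before each start, on both strands, the AP-1-type letters TGANTCA were held by Anxa2 and S100a11, against 6.75% of 32851 mouse windows. TATAAA was held by Vim, Tnc, Anxa1, Anxa2 and S100a4, against 12.4% of windows. GGAATG, a TEAD-type word, was held by Anxa1 (12.6% of windows). GGGCGG was held by 4 members (32.7% of windows) and CCAAT by 3 (33.8%). TTCNNNGAA (7.02%), TTGCNNCAA (1.74%) and TGACGTCA (1.55%) were found in 0 of the 9. The windows of S100a11 and Anxa2 are shown because they hold TGANTCA, and that of S100a4 because it is another S100 gene on chromosome 3, without those letters. Capitals mark TGANTCA or TATAAA. Each sequence stops before the first annotated exon.
S100a11, chr3:93520338-93520487, plus strand: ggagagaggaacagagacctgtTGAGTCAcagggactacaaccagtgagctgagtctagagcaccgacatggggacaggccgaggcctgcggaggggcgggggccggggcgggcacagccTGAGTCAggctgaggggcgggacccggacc
Anxa2, chr9:69453470-69453619, plus strand: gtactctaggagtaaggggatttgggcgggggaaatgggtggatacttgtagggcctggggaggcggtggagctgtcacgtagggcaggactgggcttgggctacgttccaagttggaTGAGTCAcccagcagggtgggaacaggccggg
S100a4, chr3:90603620-90603769, plus strand: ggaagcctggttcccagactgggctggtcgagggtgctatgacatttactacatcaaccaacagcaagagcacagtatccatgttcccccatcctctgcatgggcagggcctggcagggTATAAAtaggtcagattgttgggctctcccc
In S100a11 the TGANTCA matches begin 136 and 38 bases before the RefSeq start, in Anxa2 95 bases before it, and in S100a4 the TATAAA begins 31 bases before it. The TATAAA of Anxa2 begins 17 bases before the start, past the end of the printed sequence. In Vim and Anxa1 it begins 32 bases before the start, and in the windows of Tnc 126 or 205 bases. No marked match overlaps a match to another searched word. Such matches are a description of the letters, and binding was not measured.

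Total counts were between 17632070 and 22241832 per library, so that 1 read was worth 0.0445 to 0.057 CPM, the read count scaled to library size (here with the trimmed mean of M values, TMM). Esm1 (chr13:113209659-113218098), the gene deleted in the KO hosts, was counted at 25, 21 and 82 reads in WT 1, WT 2 and WT 3 and at 1, 24 and 4 reads in KO 1, KO 2 and KO 3. At 1.07 CPM, the library labelled KO 2 was thus as high as WT 1 (1.19) and WT 2 (1.09) for the gene that its label says is deleted, while KO 1 (0.057) and KO 3 (0.208) were below all WT libraries. The log2 fold change of Esm1 was -2.20 over all 6 libraries (SE 1.01, adjusted p = 0.192) and -3.02 without WT 3 and the library labelled KO 2 (SE 0.64, adjusted p = 0.0425). On the first principal component, which held 85.9% of the variance, the library labelled KO 2 (-30.3) also lay between WT 1 (-14.7) and WT 3 (-62.6), whereas KO 1 and KO 3 were at 81.8 and 107. Each member is therefore given over all 6 libraries, without the library labelled KO 2 (5 libraries), and over WT 1, WT 2, KO 1 and KO 3, the 4 libraries that the study's own comparison used. Leaving out the library labelled KO 2 was decided after its values in these same data were seen. Adjusted p-values over the 5 libraries do not allow for that choice. Without it, calls over all genes went from 0 to 4608 lower and 3986 higher. Fold changes are log2 of KO over WT from edgeR's quasi-likelihood test, with a standard error (SE) and a Benjamini-Hochberg adjusted p over all genes tested. Counts of list genes that fell, rose or were called are also by this test unless another tool is named. They are given over all 6, the 4 and the 5 libraries, except for host cell markers and Y-linked genes. Counts for these are mainly over the 4 and the 5 libraries, and over all 6 libraries this test called 0 of them. Over all 6 libraries DESeq2 called at most 4 genes of any list below as lower and at most 2 as higher, and the exact test at most 1 and 2.

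KO 1 and KO 3 held less RNA of the mesenchymal genes than the WT libraries, and the library labelled KO 2 did not follow them. For 9 of the 10 genes, KO 1 and KO 3 were both below every WT library, against 40.4% of all genes tested. Tnc was the exception. KO 1 or KO 3 was the lowest of the 6 libraries for 10 of 10 genes (KO 1 for 4, KO 3 for 6). The library labelled KO 2 was within the WT range for 7 genes, below it for Vim and S100a11 and above it for S100a6, so that the 3 KO libraries were all below the 3 WT libraries for 2 genes only, Vim and S100a11 (14.6% of all genes tested). WT 1 was the lowest WT library for 9 genes, S100a6 being the exception. How many of all genes had KO 1 or KO 3 lowest, the library labelled KO 2 within the WT range, or WT 1 lowest of WT was not counted. These positions are therefore not read as particular to the members. The range from the lowest to the highest WT library ran from 1.28-fold for S100a4 to 5.52-fold for Tnc.

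**Figure D1:**
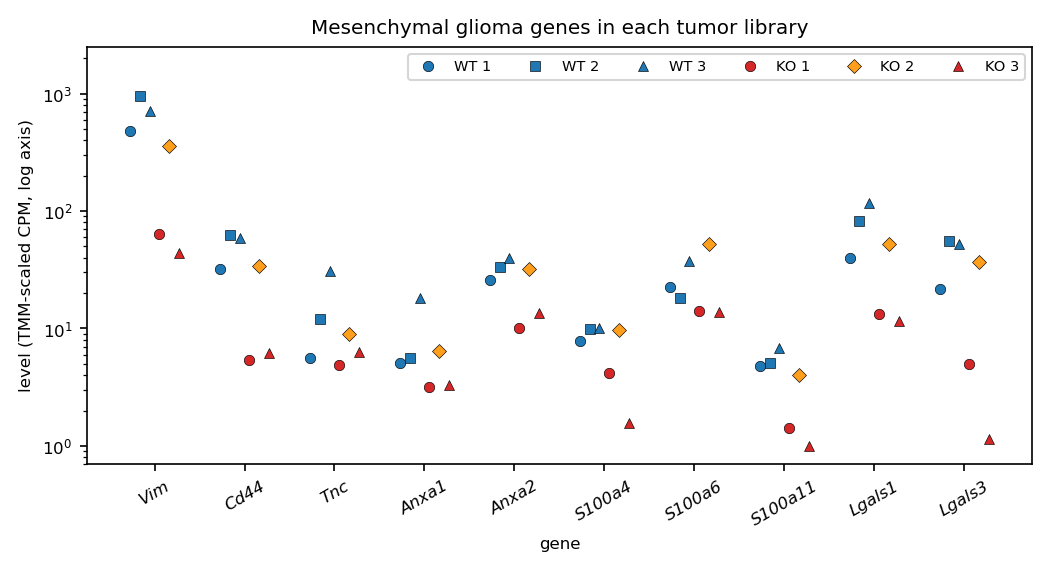
Level of each mesenchymal gene (x axis) in each of the 6 libraries (TMM-scaled CPM, log axis). Blue points are WT, red points KO 1 and KO 3, and orange diamonds the library labelled KO 2. KO 1 and KO 3 lie below the WT points for 9 of 10 genes (40.4% of all genes tested), and the orange diamond lies within the WT range for 7.

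Over all 6 libraries, 0 of the 10 genes were called at an adjusted p under 0.05, as were 0 of 16166 genes (0.0%), the smallest adjusted p of any gene being 0.184. At an unadjusted p under 0.05, 2 members (Vim and S100a11) were lower in KO, against 11.9% of all genes. DESeq2 and edgeR's exact test also called 0 members, against 2.63% and 0.241% of all genes lower in KO. The median log2 fold change of the members was -1.33 and that of all genes was -0.0217. Of the 10 members, 9 had a fold change below 0, as did 51.3% of all genes.

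Over the 4 libraries, 6 of 10 members fell (Vim, Cd44, Anxa2, S100a11, Lgals1 and Lgals3), against 13.9% of 16183 genes, and none rose. With a fold above 4 asked as well, 5 of them remained, without Anxa2, against 6.23% of all genes. The median of the 10 was -1.84, beside -0.0262 for all genes. Without the library labelled KO 2, 7 of 10 fell, S100a4 in addition, against 28.3% of 16279 genes, with a median of -1.94 beside -0.0202. The 3 comparisons share their control libraries, so their fold changes are not independent of each other.

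**Figure D2:**
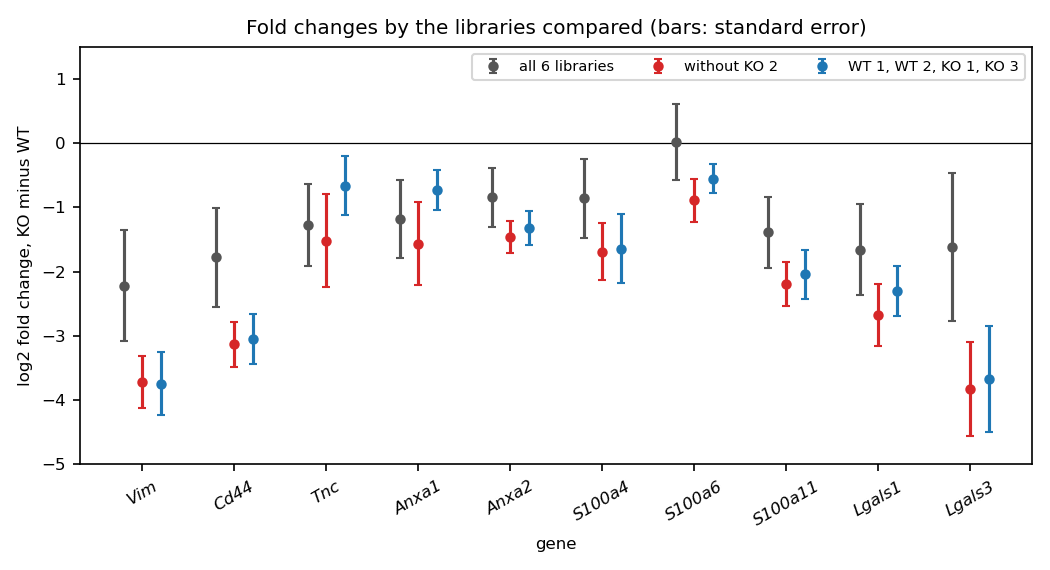
Log2 fold change (KO minus WT) of each mesenchymal gene over all 6 libraries (gray), without the library labelled KO 2 (red) and over WT 1, WT 2, KO 1 and KO 3 (blue). Bars are the SE of the fit. S100a6 is at 0.02 over all 6 libraries and at -0.89 without KO 2, and Vim and Lgals3 are the lowest over the 4 libraries.

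Because levels of different genes can be compared only per length, the FPKM values were used for the order among members. In the WT tumors the mean FPKM (± SD, n = 3) was 417 ± 152 for Vim, 107 ± 53.4 for Lgals1, 38.5 ± 14.9 for S100a6, 33.0 ± 14.8 for Lgals3, 25.6 ± 5.84 for Anxa2 and 19.8 ± 3.24 for S100a4. It was 11.8 ± 2.42 for S100a11, 10.4 ± 3.65 for Cd44, 7.35 ± 5.73 for Anxa1 and 2.43 ± 1.98 for Tnc. Vim stood apart from Lgals1 by more than the spread of either, and so did Lgals1 from S100a6. Below Lgals1, most neighbors in this order, such as S100a6 and Lgals3 or S100a11 and Cd44, were closer to each other than the larger of their SDs, S100a4 and S100a11 being the exception. In KO 1 and KO 3 the mean FPKM was 26.2 for Vim, 17.3 for S100a6, 13.9 for Lgals1, 1.96 for Lgals3 and 0.973 for Cd44, so that S100a6 stood above Lgals1 there. Vim made up 63.2%, 68.6% and 54.0% of the summed FPKM of the 10 genes in WT 1, WT 2 and WT 3, and 36.0%, 46.4% and 30.6% in KO 1, KO 2 and KO 3. The sum itself was 423, 834.7 and 762.5 FPKM in the WT libraries and 88.6, 447.1 and 67.4 in the KO libraries. KO 1 and KO 3 were thus low both in the sum and in the share that was Vim.

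Vim (chr2:13573927-13582826, plus strand) encodes vimentin, the filament of mesenchymal and immature glial cells. It was the most abundant member, with 478.1 CPM in WT 1, 956.5 in WT 2 and 706.3 in WT 3, against 64.1 in KO 1, 360.2 in KO 2 and 43.8 in KO 3. The groups did not overlap, but the library labelled KO 2 lay closer to WT 1 than to the other KO libraries. The mean was 714 ± 239 CPM in WT and 156 ± 177 CPM in KO (SD, n = 3). With all 6 libraries in the fit, its log2 fold change was -2.22 (SE 0.86, adjusted p = 0.184). Vim fell by 3.74 over the 4 libraries (SE 0.49, adjusted p = 0.0343), and its value was -3.72 without the library labelled KO 2 (SE 0.41, adjusted p = 0.00798). The WT mean was 13.2-fold that of KO 1 and KO 3.

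Of 13 other intermediate filament genes tested, 6 were below 0 and 7 above 0 over all 6 libraries (median 0.10, 0 called), from Nes at -2.07 to Nefm, a neuronal filament, at 1.58. In the 4-library fit, 4 of the 13 fell and none rose by the quasi-likelihood test, whereas DESeq2 called 5 and the exact test 3 as higher. Without the library labelled KO 2, 5 fell and 5 rose. The 4 that fell over the 4 libraries were Nes (-3.56), the nestin of neural progenitors, Gfap (-2.26), the glial filament that forms mixed filaments with vimentin, Prph (-3.98), the filament of peripheral neurons, and Lmnb1 (-3.28), a nuclear lamin. Nes read 130, 260 and 280 CPM in WT and 19.8, 129 and 13.5 CPM in KO, an order of libraries close to that of Vim. Gfap read 1092, 1143 and 1117 CPM in WT and 247, 823 and 224 CPM in KO.

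Cd44 (chr2:102811141-102901665, minus strand) encodes the hyaluronan receptor that is widely used as a marker of mesenchymal GBM cells. It was at 32.2, 63.1 and 58.6 CPM in WT 1, WT 2 and WT 3 and at 5.42, 33.9 and 6.20 CPM in KO 1, KO 2 and KO 3. KO 1 and KO 3 were near each other and below all others, and the library labelled KO 2 was above WT 1. Its log2 fold change was -1.78 over all 6 libraries (SE 0.78, adjusted p = 0.188). Cd44 fell by 3.05 over the 4 libraries (SE 0.39, adjusted p = 0.0343), and its value was -3.14 without the library labelled KO 2 (SE 0.35, adjusted p = 0.00798). Its ratio to Vim in CPM was 0.0674, 0.066 and 0.083 in WT and 0.0845, 0.0941 and 0.141 in KO.

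Among 14 genes of CD44 ligands and partners, 13 were below 0 over all 6 libraries (median -0.67, 0 called), from Spp1 at -2.38 to Has1 at 0.66. The 4 libraries had 5 that fell and none that rose (7 fell and none rose without the library labelled KO 2). Has2, the main synthase of high-molecular-weight hyaluronan, fell by 4.10, with 8.04, 14.5 and 18.2 CPM in WT and 0.856, 10.9 and 0.469 CPM in KO. Hmmr, a hyaluronan-binding protein of the mitotic spindle, fell by 4.93, and the hyaluronidase Hyal2 by 1.85. Moesin (Msn, -2.29) and radixin (Rdx, -1.16), which tie the CD44 tail to actin, also fell. Osteopontin (Spp1), a secreted CD44 ligand, read 20.2, 60.9 and 155.6 CPM in WT and 15.9, 19.1 and 11.2 CPM in KO, and was not called over the 4 libraries (-1.60, adjusted p = 0.0888). All 3 KO libraries were below all 3 WT libraries for Spp1, with WT 3 far above the rest.

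Tnc (chr4:63959785-64047015, minus strand) encodes tenascin-C, a matrix protein of tumor stroma and of the neural stem cell niche. It was at 5.57, 11.99 and 30.7 CPM in WT 1, WT 2 and WT 3 and at 4.85, 8.95 and 6.35 CPM in KO 1, KO 2 and KO 3. It was the one member for which KO 1 and KO 3 were not both below the WT libraries, as KO 3 exceeded WT 1. The WT libraries themselves differed 5.52-fold. The log2 fold change was -1.28 over all 6 libraries (SE 0.64, adjusted p = 0.208), -0.66 over the 4 libraries (SE 0.46, adjusted p = 0.298) and -1.52 without the library labelled KO 2 (SE 0.72, adjusted p = 0.121). Without WT 2, the 4-library value was 0.0033, and without WT 1 it was -1.11.

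Of 11 genes of the tenascin family and its receptors that were tested, 7 were below 0 over all 6 libraries (median -0.40, 0 called), from Egfr at -1.87 to Sdc4 at 0.65. In the 4-library fit, 3 fell and none rose, against 13.9% of all genes that fell. Without the library labelled KO 2, 4 fell and 2 rose, against 28.3% of all genes lower and 3986 of 16279 higher. The 3 were the integrin subunit Itgb1 (-2.12), the receptor phosphatase Ptprz1 (-1.998) and the receptor kinase Egfr (-2.42). Tenascin-R (Tnr), the tenascin of oligodendrocyte lineage cells and neurons, read 140, 96.5 and 142 CPM in WT and 103, 202 and 123 CPM in KO (-0.08 over the 4 libraries, adjusted p = 0.821).

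Anxa1 (chr19:20373428-20390944, minus strand), a glucocorticoid-induced annexin that ligates formyl peptide receptors, was at 5.04, 5.58 and 18.2 CPM in WT 1, WT 2 and WT 3 and at 3.19, 6.41 and 3.28 CPM in KO 1, KO 2 and KO 3. WT 3 was more than 3 times any other WT library, and the library labelled KO 2 was above WT 1 and WT 2. For Anxa1 the log2 fold change was -1.18 over all 6 libraries (SE 0.61, adjusted p = 0.216), -0.72 over the 4 libraries (SE 0.32, adjusted p = 0.132) and -1.56 without the library labelled KO 2 (SE 0.65, adjusted p = 0.0862). A long noncoding RNA, 1500015L24Rik, lies on the opposite strand over all 17517 bases of Anxa1, and whether counting used the strand is not given in the sources used here. That gene was at 0.345 to 1.43 CPM across the libraries. Annotated genes also lie over Tnc (8030451A03Rik) and Anxa2 (Gm16144) on the opposite strand and over S100a4 (Gm42674) on the same strand, and these were not analysed here.

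Anxa2 (chr9:69453620-69491795, plus strand) forms a heterotetramer with S100A10 at the plasma membrane, where it binds plasminogen activators. It was at 26.0, 33.1 and 39.8 CPM in WT 1, WT 2 and WT 3 and at 10.1, 32.2 and 13.6 CPM in KO 1, KO 2 and KO 3. Both KO 1 and KO 3 were below all WT libraries and the library labelled KO 2 was near their mean (0.977-fold). Anxa2 had a log2 fold change of -0.84 over all 6 libraries (SE 0.46, adjusted p = 0.231). Anxa2 fell by 1.33 over the 4 libraries (SE 0.26, adjusted p = 0.0398) and was at -1.47 without the library labelled KO 2 (SE 0.25, adjusted p = 0.0104). The partner S100a10 was at 24.0, 21.3 and 33.5 CPM in WT and at 17.7, 30.6 and 21.3 CPM in KO. S100a10 was not called over the 4 libraries (-0.23, adjusted p = 0.425), and the difference between the fold changes of Anxa2 and S100a10 was not tested.

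Of 7 other annexins tested, 5 were below 0 over all 6 libraries (median -0.42, 0 called), from Anxa6 at -1.08 to Anxa11 at 0.61. Anxa4 (-1.46) and Anxa6 (-1.34) fell over the 4 libraries, and none rose. In the 5 libraries 4 fell and 1 rose. Anxa5, the phosphatidylserine binder, read 86.9, 103 and 106 CPM in WT and 65.9, 90.1 and 56.5 CPM in KO, and was not called over the 4 libraries (-0.65, adjusted p = 0.0687). It was chosen for mention after its values were seen.

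The S100 members lie on chromosome 3, with 6836 bases between the end of S100a4 (chr3:90603771-90606045) and the start of S100a6 (chr3:90612882-90624181), and with S100a11 farther along (chr3:93520488-93526287), each on the plus strand. S100a4, linked to cell motility and also expressed by fibroblasts, T cells and macrophages, was at 7.80, 9.92 and 10.02 CPM in WT 1, WT 2 and WT 3 and at 4.16, 9.75 and 1.56 CPM in KO 1, KO 2 and KO 3. The library labelled KO 2 was within the narrow WT range, and KO 3 (30 reads) was the lowest. For S100a4 the log2 fold change was -0.86 over all 6 libraries (SE 0.62, adjusted p = 0.329) and -1.64 over the 4 libraries (SE 0.53, adjusted p = 0.0776). Without the library labelled KO 2, S100a4 fell by 1.69 (SE 0.45, adjusted p = 0.0254). In the 4 libraries DESeq2 (adjusted p = 0.0202) and edgeR's exact test (adjusted p = 0.0196) called it as well.

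S100a6, or calcyclin, a protein of proliferating and reactive glial cells, was at 22.6, 18.1 and 37.3 CPM in WT 1, WT 2 and WT 3 and at 14.03, 52.1 and 13.95 CPM in KO 1, KO 2 and KO 3. It was the one member with its highest value in the library labelled KO 2, which was 2.00-fold the WT mean, while KO 1 and KO 3 were below all WT libraries. Its fitted log2 fold change was 0.02 over all 6 libraries (SE 0.60, adjusted p = 0.984), -0.55 over the 4 libraries (SE 0.22, adjusted p = 0.116) and -0.89 without the library labelled KO 2 (SE 0.33, adjusted p = 0.0621). The sign over all 6 libraries turned to -0.17 with limma-voom.

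S100a11, a partner of annexin A1, was at 4.81, 5.06 and 6.81 CPM in WT 1, WT 2 and WT 3 and at 1.43, 4.01 and 0.989 CPM in KO 1, KO 2 and KO 3. The groups did not overlap, the nearest libraries being the one labelled KO 2 (4.01 CPM) and WT 1 (4.81 CPM). KO 3 held 19 reads, with a 95% exact Poisson interval of 11.4 to 29.7 reads that covers counting error only. The log2 fold change was -1.39 over all 6 libraries (SE 0.55, adjusted p = 0.184). S100a11 fell by 2.04 over the 4 libraries (SE 0.38, adjusted p = 0.0369) and was at -2.20 without the library labelled KO 2 (SE 0.34, adjusted p = 0.00898).

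Of 7 other S100 genes tested, 2 were below 0 and 5 above 0 over all 6 libraries (median 0.18, 0 called), from S100a9 at -0.82 to S100b at 0.93. Over the 4 libraries 0 were called in either direction by the quasi-likelihood test, 2 at an unadjusted p under 0.05, and DESeq2 and the exact test called 1 each as lower. Without the library labelled KO 2, S100a13 and S100a16 fell and S100b rose, of 8 tested. S100b, the S100 protein of astrocytes and oligodendrocyte lineage cells, read 90.4, 41.3 and 62.2 CPM in WT and 145, 107 and 120 CPM in KO, so that all 3 KO libraries were above all 3 WT libraries (0.93 over all 6 libraries, adjusted p = 0.184). S100a8 and S100a9, which neutrophils and inflammatory monocytes express, were at or below 4.24 CPM in all libraries.

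Lgals1 (chr15:78926725-78930465, plus strand) encodes galectin-1, a secreted lectin of glioma cells, endothelium and myeloid cells. It was at 39.9, 82.3 and 117.8 CPM in WT 1, WT 2 and WT 3 and at 13.3, 52.3 and 11.6 CPM in KO 1, KO 2 and KO 3. The lowest were KO 1 and KO 3, with the library labelled KO 2 above WT 1. The log2 fold change was -1.66 over all 6 libraries (SE 0.71, adjusted p = 0.186). Lgals1 fell by 2.30 over the 4 libraries (SE 0.39, adjusted p = 0.0344) and was at -2.68 without the library labelled KO 2 (SE 0.48, adjusted p = 0.0112).

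Lgals3 (chr14:47367751-47386160, plus strand) encodes galectin-3, which is abundant in activated microglia and macrophages as well as in mesenchymal tumor cells. It was at 21.9, 55.1 and 52.7 CPM in WT 1, WT 2 and WT 3 and at 4.96, 37.0 and 1.15 CPM in KO 1, KO 2 and KO 3. KO 3, with 22 reads, was the lowest, and KO 1 and KO 3 differed more from each other, as a ratio, for Lgals3 than for the other 9 members. Its log2 fold change was -1.61 over all 6 libraries (SE 1.15, adjusted p = 0.324). Lgals3 fell by 3.67 over the 4 libraries (SE 0.82, adjusted p = 0.0454) and was at -3.83 without the library labelled KO 2 (SE 0.74, adjusted p = 0.0129). The WT mean was 14.2-fold that of KO 1 and KO 3, the highest such ratio among the members, beside 1.86-fold for S100a6, the lowest.

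Of 8 other genes of the galectin family tested, 6 were below 0 over all 6 libraries (median -0.61, 0 called), from Lgals7 at -2.43 to Lgals12 at 0.90. In the 4-library fit, 2 of 7 fell and none rose (4 with the exact test), and without the library labelled KO 2 4 of 8 fell and none rose. Lgals9, an immune-regulatory galectin, fell by 2.92, with 49.7, 86.9 and 87.0 CPM in WT and 11.1, 61.4 and 7.13 CPM in KO. Lgals3bp, a secreted glycoprotein that galectin-3 binds, fell by 3.25, with 217, 284 and 237 CPM in WT and 33.1, 215 and 19.9 CPM in KO.

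**Figure D3:**
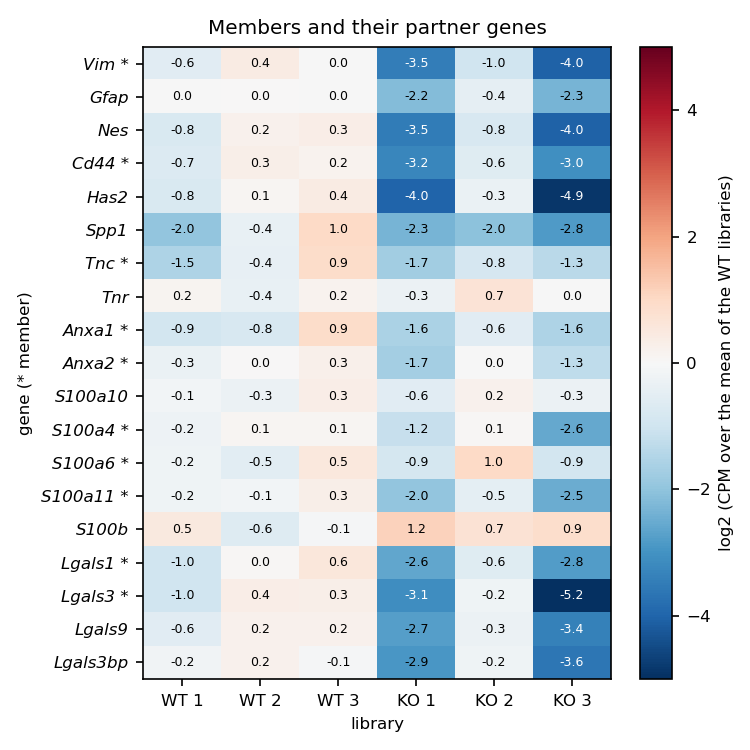
Log2 of the CPM in each library over the mean of the 3 WT libraries, for the mesenchymal genes (asterisks) and for related genes, with each value printed in its cell and coloured from blue (lower) to red (higher). The KO 1 and KO 3 columns are blue for most rows and the KO 2 column is near the WT columns for most rows, while S100b is above 0 in all 3 KO libraries.

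The wider mesenchymal program was examined with lists of regulators and of other signature genes. Of 27 regulators and upstream signals tested, 21 were below 0 over all 6 libraries (median -0.55, 0 called), from Tnf at -1.78 to Twist2 at 2.43. Of these, 10 fell and none rose over the 4 libraries, where DESeq2 called 15 lower and 1 higher and the exact test 15 and 2. Without the library labelled KO 2, 16 fell and 2 rose. The 10 included the transcription factors Stat3 (-1.58) and Cebpd (-1.76) and the transcriptional coactivator Yap1 (-0.97). Also among them were the cytokine oncostatin M (Osm, -3.16) with its receptor Osmr (-1.66), and tumor necrosis factor (Tnf, -5.18) with its receptor Tnfrsf1a (-1.85). The values of Osm and Tnf rest on few reads, 4 and 1 of Osm and 4 and 0 of Tnf in KO 1 and KO 3. The library labelled KO 2 held 29 reads of Osm and 77 of Tnf, against 23 to 42 and 49 to 117 in WT. Stat3 read 195, 223 and 242 CPM in WT and 74.2, 218 and 66.7 CPM in KO. Cebpb, which with Stat3 is known as a driver of the mesenchymal state, read 14.2, 15.5 and 21.9 CPM in WT and 10.2, 18.7 and 10.99 CPM in KO, and was not called over the 4 libraries (-0.50, adjusted p = 0.149).

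Of 52 other mesenchymal signature genes, 39 were below 0 over all 6 libraries (median -0.76, 0 called), from Emp1 at -2.43 to Efemp1 at 1.16. In the 4-library fit, 20 of the 52 fell and none rose (median -1.10), and without the library labelled KO 2 31 fell and 4 rose. The 4 included Ctgf (1.30, adjusted p = 0.0403) and Actn1 (0.86, adjusted p = 0.0284). DESeq2 and the exact test each called 29 lower and 3 higher over the 4 libraries. Those that fell over the 4 libraries included the matrix protein Tgfbi (-3.42), the urokinase Plau (-2.20) with its receptor Plaur (-2.27), the membrane protein Emp1 (-3.56) and the interferon-induced Ifitm3 (-3.93). Timp1, an inhibitor of metalloproteinases, read 2.71, 7.08 and 10.7 CPM in WT and 1.26, 3.38 and 1.77 CPM in KO (-1.70 over the 4 libraries, adjusted p = 0.0854).

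Genes of other programs moved in the same libraries. Of 18 proneural genes, 12 fell over the 4 libraries and none rose (1 with DESeq2 and with the exact test; median -1.96, beside -1.84 for the mesenchymal members), among them Olig2 (-2.64), Pdgfra (-1.17) and Dll3 (-4.01). In the 5 libraries 13 fell and 1 rose. Over all 6 libraries 14 of the 18 were below 0 (median -0.79, 0 called), from Dll3 at -2.20 to Erbb3 at 0.71. All 10 proliferation genes were below 0 over all 6 libraries (median -1.81, 0 called), from Aurkb at -2.16 to Pcna at -1.21, and 9 of the 10 fell over the 4 libraries (median -4.57) and 10 without the library labelled KO 2. The difference between the mesenchymal and the proneural or proliferation medians was not tested. The summed CPM of the mesenchymal genes was 643.9, 1240.9 and 1078.4 in WT 1, WT 2 and WT 3 and 125.6, 596.7 and 102.6 in KO 1, KO 2 and KO 3. That of the proneural list was 2905, 3696 and 3495 in WT and 1504, 3697 and 1264 in KO, and that of the proliferation list was 1269, 2263 and 2170 in WT and 152, 1402 and 66.9 in KO. The ratio of the mesenchymal to the proneural sum was 0.222, 0.336 and 0.309 in WT and 0.0835, 0.161 and 0.0811 in KO. Vim made up 65.5% to 77.1% of the mesenchymal sum of CPM in WT and 42.7% to 60.4% in KO. Without Vim, the ratio of the other 9 genes to the proneural sum was 0.0571, 0.077 and 0.106 in WT and 0.0409, 0.064 and 0.0465 in KO, so that the groups did not overlap with Vim in the sum and overlapped without it. Against the proliferation sum the ratio was 0.507, 0.548 and 0.497 in WT and 0.828, 0.426 and 1.53 in KO, so that KO 1 and KO 3 were here above the WT libraries, as they were without Vim (0.405 and 0.878, against 0.126 to 0.171 in WT).

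**Figure D4:**
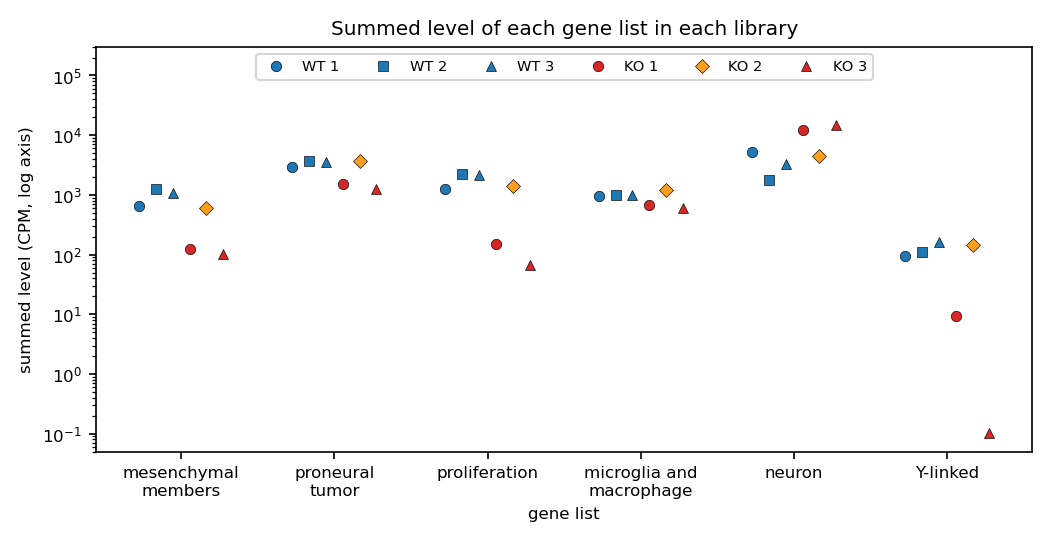
Summed CPM (log axis) of the mesenchymal members and of 5 other gene lists in each library, with WT in blue, KO 1 and KO 3 in red and the library labelled KO 2 in orange. KO 1 and KO 3 are low for the mesenchymal, proneural, proliferation, microglia and macrophage, and Y-linked lists. They are high for the neuron list (12219 and 14630 CPM).

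Markers of host cells and of sex chromosomes differed between the same libraries. The 10 neuron markers summed to 5291, 1762 and 3285 CPM in WT 1, WT 2 and WT 3 and to 12219, 4543 and 14630 CPM in KO 1, KO 2 and KO 3, and 10 of 10 were above 0 over the 4 libraries (median 1.82). The quasi-likelihood test called 0 of them there (9 at an unadjusted p under 0.05), DESeq2 and the exact test called 9 as higher, and without the library labelled KO 2 9 rose. The 8 astrocyte markers summed to 2098 to 3236 CPM in WT and to 3898 to 6586 CPM in KO, and 7 of the 8 were above 0 over the 4 libraries (median 0.91, 1 rose, 2 with DESeq2 and with the exact test, and 5 without the library labelled KO 2). The 8 myelin markers summed to 1357 to 3484 CPM in WT and to 3325 to 7743 CPM in KO (median 1.12 over the 4 libraries). The quasi-likelihood test called 0 of them there (0 at an unadjusted p under 0.05), DESeq2 2 and the exact test 1 as higher, and without the library labelled KO 2 1 rose. The 4 Y-linked genes held 1958, 2127 and 3335 reads in WT and 164, 3307 and 2 reads in KO, with 3 of the 4 at 0 reads in KO 3, and 1 of the 4 fell over the 4 libraries and 4 without the library labelled KO 2. The part of these differences in the mesenchymal values was not tested.

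Microglia and macrophages, a further source of these transcripts, were read from 14 markers that summed to 976 to 987 CPM in WT and to 667, 1204 and 593 CPM in KO. Over all 6 libraries 8 of the 14 were below 0 and 6 above 0 (median -0.09, 0 called). Over the 4 libraries 5 of the 14 fell and none rose (Aif1, Cd68, Ptprc, Ms4a7 and Lyz2), with a median of -0.53 (7 fell and 1 rose without the library labelled KO 2), and none of the 14 was at 0 in any library. Lyz2 read 187, 262 and 278 CPM in WT and 40.0, 274 and 22.6 CPM in KO, whereas P2ry12, a marker of resident microglia, read 36.9, 16.6 and 19.0 CPM in WT and 54.7, 36.7 and 48.3 CPM in KO. The ratio of the mesenchymal sum to the sum of these markers was 0.66, 1.27 and 1.09 in WT and 0.188, 0.496 and 0.173 in KO. Without Vim it was 0.17, 0.29 and 0.377 in WT and 0.0921, 0.196 and 0.099 in KO, where the library labelled KO 2 was above WT 1, so that the groups overlapped. Of 7 T cell markers, 6 fell over the 4 libraries and 6 without the library labelled KO 2, with sums of 32.6 to 36.1 CPM in WT and of 27.7, 49.4 and 7.34 CPM in KO. Their median over all 6 libraries was -0.535, with 0 called. Of 8 endothelial markers 0 were called over the 4 libraries by the quasi-likelihood test, DESeq2 or the exact test (median -0.09, 2 higher at an unadjusted p under 0.05), and 2 rose without the library labelled KO 2, with sums of 171 to 209 CPM in WT and 159 to 220 CPM in KO. Of 8 mural markers 1 fell and 2 rose over the 4 and the 5 libraries (sums of 282 to 358 CPM in WT and 131 to 403 CPM in KO), and of 7 fibroblast and meningeal markers 2 fell, while 1 rose without the library labelled KO 2 and with DESeq2 and the exact test (sums of 246 to 294 CPM in WT and 157 to 273 CPM in KO). Of 3 neutrophil markers in the table, 2 were tested and 0 were called over the 4 libraries by any of the 3 tools (0 at an unadjusted p under 0.05; sums of 17.3 to 24.9 CPM in WT and 13.5 to 24.3 CPM in KO), and the 1 red blood cell marker present, Alas2, was at 2.32 to 11.8 CPM in all libraries. The part of each cell type in the mesenchymal values was not tested.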

How the data were processed

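RNA-seq of 6 tumor libraries, 3 per group, was deposited as 1 table with whole-number read counts per gene, which the authors obtained by counting uniquely mapped reads, and with FPKM values, which the authors made from the counts, the library total and the gene length. The labels name mm10, CASAVA 1.8.2, edgeR, and an NEBNext Ultra library kit, while the methods name hg38, HTSeq and another kit, and this was not resolved. The file's columns of normalized values, fold changes and p-values from the authors' own comparison were not used. Positions are from the GRCm38 GENCODE annotation.

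Counts were tested with edgeR 4.0.16 (R 4.3.3, quasi-likelihood, TMM scaling). Genes were kept by a minimum count of 10 and a minimum total of 15, and p-values were Benjamini-Hochberg adjusted over all genes tested, with a call at 0.05. CPM values are on TMM-scaled library sizes. Over 6, 5 and 4 libraries, 16166, 16279 and 16183 genes were tested, and all 10 members passed the filter in each. The table holds only genes with reads in at least 4 libraries. The alternatives were DESeq2 1.42.0, limma-voom (limma 3.58.1), edgeR's exact test, other scalings, no filter, a replicate block, leaving out each library, and other call rules. Same-numbered WT and KO libraries deviated from their group means with correlations of 0.602, 0.642 and -0.25 over 16166 genes. With 3 libraries per group these values do not settle whether the numbers mark pairs. The main fit took no pairs, and the replicate block is given as an alternative. The genes named are the 10 members, Esm1, a set of named partners, and in each list the genes with the lowest and highest fold change over all 6 libraries. List members named beyond these were chosen after their values were seen. The members and lists were chosen with earlier results of these data known, and some lists overlap. On simulated counts of 15314 genes, some of them with known changes, the quasi-likelihood test recovered 94% of 2-fold changes over 6 libraries and 81% over 4 libraries. The simulated counts had 1 small spread for every gene and no library that differed from its group. These shares check the fit only and do not say how many 2-fold changes could be found in the tumor libraries. Nothing says whether the 3 libraries of a group came from separate cultures of cells, and p-values measure the spread between these libraries. Some items are not reported here. Poisson intervals cover counting error only.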

Additional observations from a re-analysis of the deposited data

How the results depend on the processing

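Over all 6 libraries, the count of members called stayed at 0 under the other scalings, no filter, DESeq2, the exact test, limma-voom and the fold rule. It was 2 at an unadjusted p, against 11.9% of all genes. When a library was left out it ranged from 0 to 7, the 7 being without the library labelled KO 2, against 28.3% of all genes. The median of the members ranged from -1.94 (without KO 2) to -0.99 (without WT 3). S100a6 turned to -0.17 with limma-voom and to -0.24 with the replicate block, and ranged from -0.89 (without KO 2) to 0.39 (without WT 3), being -0.08 without WT 1 and -0.18 without WT 2. DESeq2 gave no adjusted p for Lgals3 over 6 libraries. With the replicate number as a block, 0 members were called (median -1.39), the smallest adjusted p of all genes was 0.065 and no call changed. The 4 libraries share only number 1, so no block was possible there.

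Over the 4 libraries, the count was 6 under the other scalings, no filter and limma-voom, against 12.4% to 14.1% of all genes. It was 7 with DESeq2 (19.5% of all genes) and the exact test (22.1%), and 5 with the fold rule (6.23%). Leaving out a library left 1 sample in an arm, which is assumed to vary like the other arm, so only fold changes are given for these fits. Fewer members and a smaller share of all genes were called without KO 3, KO 1 or WT 2, and more of both without WT 1. Without KO 3, Vim was at -3.48, Cd44 at -3.13, Anxa2 at -1.55, S100a11 at -1.78, Lgals1 at -2.19 and Lgals3 at -2.95. Without KO 1, Anxa2 was at -1.11 and S100a11 at -2.31, and without WT 2, Lgals3 was at -2.85. The median ranged from -2.35 (without KO 1) to -1.57 (without WT 2). Tnc ranged from -1.11 (without WT 1) to 0.0033 (without WT 2). Over all genes, the exact test called 3577 lower and 2592 higher, and DESeq2 3160 and 2679, beside 2244 and 464. The cause was not tested. The smallest counts behind a member were 19 reads of S100a11 and 22 of Lgals3, both in KO 3.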

Other observations

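Ratios between genes of a library do not depend on how the library was scaled, and since gene length is the same in each library they can be set side by side across libraries. The ratio of Vim to S100a6 in CPM was 21.1, 52.7 and 18.9 in WT 1, WT 2 and WT 3 and 4.57, 6.92 and 3.14 in KO 1, KO 2 and KO 3, so that the library labelled KO 2 stood with the other KO libraries. In that library Vim was 0.505-fold and S100a6 2.00-fold the WT mean. The ratio of Anxa2 to its partner S100a10 was 1.08, 1.55 and 1.19 in WT and 0.571, 1.05 and 0.639 in KO, and also did not overlap between the groups. Vim over Gfap was 0.438, 0.837 and 0.633 in WT and 0.259, 0.438 and 0.196 in KO. Lgals3 over Lgals1 was 0.549, 0.67 and 0.447 in WT and 0.372, 0.708 and 0.0987 in KO, with the library labelled KO 2 the highest and KO 3 the lowest. S100a4 over S100a6 was 0.345, 0.547 and 0.268 in WT and 0.297, 0.187 and 0.112 in KO. Anxa1 over Anxa2 was 0.194, 0.168 and 0.457 in WT and 0.316, 0.199 and 0.24 in KO. Tnc over Tnr was 0.0397, 0.124 and 0.217 in WT and 0.0472, 0.0444 and 0.0515 in KO, and for both of these pairs the KO libraries lay within the WT range. These pairs were chosen with the values known, and no test was made of them.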
